A study of Homo sapiens with 44 samples.

Results

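The comparison described here is that of colon fibroblasts given IL-22 with colon fibroblasts left unstimulated. Its members were chosen by their labels alone: the 4 libraries named for IL-22 and the 4 named unstimulated, 8 of the 44 bulk RNA-seq libraries of the series. The series treated the human colon fibroblast line Ccd-18Co with 1 of 10 cytokines or with none, in 4 libraries for each of 11 groups. The question was which transcripts each cytokine moves in stromal cells of the gut. Cells at passage 20 or lower were seeded at 25000 per well, and all groups, the unstimulated one included, were kept without serum for 72 h. IL-22, IL-6 and oncostatin M (OSM) were each given at 10 ng/ml in serum-free medium, and extracts were made after 24 h. Ccd-18Co is a single established line, so the 4 libraries of a group are repeats on that line. Nothing states that they came from separate cultures, and the p-values below then measure only the spread between libraries within groups. In the tests used, that spread was estimated over all 11 groups together unless stated otherwise.

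IL-22 is a cytokine of the IL-10 family that lymphocytes release at barrier surfaces. It is known for acting on epithelial cells through a receptor made of IL22RA1 and the widely expressed IL10RB, whose kinases JAK1 and TYK2 phosphorylate the transcription factor STAT3. IL-6 and OSM reach STAT3 as well, through receptors built around gp130 (gene IL6ST), which fibroblasts carry.

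The libraries held between 742173 estimated counts (IL-22 replicate 3) and 1725354 (unstimulated replicate 1). Levels are given as CPM, counts scaled to a normalized library size of 1000000, and 3 counts correspond to 1.47 to 2.19 CPM in the unstimulated libraries and to 1.92 to 3.85 CPM in those given IL-22. Summed over 11 fibroblast marker genes, the level was 29295 to 41342 CPM in unstimulated and 34367 to 41387 CPM in IL-22 libraries. Markers of epithelial cells summed to at most 27.0 CPM, those of immune cells to at most 9.30 CPM and those of endothelial cells to at most 5.12 CPM in any of the 8 libraries. In a bulk sample, fewer cells of a kind and less RNA per cell cannot be told apart.

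No gene was called between IL-22 and unstimulated cells, a call being a log2 fold change beyond 1.5 in either direction at an adjusted p under 0.05, in edgeR's quasi-likelihood test of 9513 genes (0% called). The smallest Benjamini-Hochberg adjusted p in edgeR was 0.0911, shared by 11 genes. With the filter and fit on the 8 libraries alone, which tested 7427 genes, the smallest edgeR adjusted p was 0.293. At an unadjusted p under 0.05 there were 1037 genes, 491 higher with IL-22 (5.16%) and 546 lower (5.74%). The 4 IL-22 libraries lay wholly above the 4 unstimulated ones for 210 genes (2.21%) and wholly below them for 256 (2.69%). DESeq2, run as an alternative on the same counts, called 2 genes, CXCL5 and IFIT2, both lower with IL-22. The filter for both tests took in all 44 libraries, so a gene could pass it through other groups. DESeq2 gave an adjusted p to 2320 genes, of which 78 passed as higher (3.36%) and 34 as lower (1.47%) without regard to fold. For comparison, edgeR called 124 genes for OSM and 1 for IL-6 against the same unstimulated libraries. At an unadjusted p under 0.05 edgeR had 1455 genes for OSM and 233 for IL-6, next to 1037 for IL-22. Without regard to fold, DESeq2 passed 505 genes for OSM and 1 for IL-6 at an adjusted p under 0.05.

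The edgeR count of 0 rested on single libraries. Without unstimulated replicate 3 there were 6 calls (DSTYK, ELMO2, GDF15, GPR39, H2BC5 and RGCC) and without IL-22 replicate 4 there were 4 (CHTF8, EXO5, GDF15 and H2AC19), while each of the other 6 omissions left 0. Of the genes with an adjusted p under 0.05 in edgeR, 71 in the first case and 54 in the second, 33 were shared.

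The receptor chain IL22RA1 was not detected in these libraries. It had a count of 0 in all 8 libraries and a single count in 1 of the 44. With 3 counts over a group as the floor, its level could be up to 0.476 CPM in unstimulated and 0.602 CPM in IL-22 cells. This floor covers counting error only. The decoy receptor IL22RA2, the chain IL20RA of related receptors, IL10RA, the interferon lambda receptor chain IFNLR1, the feedback inhibitor CISH and the phosphatase PTPN6 were also at 0 in the 8 libraries.

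The shared chain IL10RB was present. It measured 18.1, 24.1, 21.8 and 16.4 CPM in unstimulated replicates 1 to 4 and 16.0, 12.1, 11.5 and 16.6 CPM with IL-22. The 2 groups overlapped, with a log2 fold change of -0.50 (95% confidence interval -1.43 to 0.43, unadjusted p = 0.284). The kinase JAK1 differed by -0.09 (interval -0.47 to 0.29) and STAT3 itself by 0.01 (interval -0.64 to 0.66). The partner kinase TYK2 was too low to test, with at most 7 counts in a library.

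Of 23 receptor and JAK-STAT pathway genes, 12 were tested, and 1 was lower and 0 higher at an unadjusted p under 0.05. Over all genes 5.74% were lower and 5.16% higher at that threshold. The 1 gene was PTPN11, which encodes the phosphatase SHP2. Its level was 188, 172, 167 and 187 CPM in unstimulated cells and 135, 142, 124 and 169 CPM with IL-22. All but 1 IL-22 library lay below the unstimulated range, with a log2 difference of -0.32 ± 0.15 (SE, n = 4 and 4, unadjusted p = 0.0395). The median of the 12 log2 fold changes was -0.11, against -0.02 for all genes tested.

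STAT3 binds DNA at a palindrome with 3 free bases between TTC and GAA. The letters TTCNNNGAA, which read the same on both strands, were searched in windows of 250 bases before to 50 after gene starts. Of 30 listed STAT3 targets 24 had a window in the RefSeq table (GRCh38.p14), 36 windows in all. In 4 of these (11.1%) the letters occurred, against 2689 of 35116 windows of all genes (7.66%), and neither of the 2 windows of SOCS3 had them. The matches are shown because they are where these windows hold the letters STAT3 is known to bind, with the 9 motif bases in capitals and 10 bases on each side. BCL6 is a transcriptional repressor, IL1R1 the signalling receptor of IL-1 and LIFR the receptor of leukaemia inhibitory factor.
BCL6 chr3:187745478-187745506 (minus strand): gaagctcaaaTTCCGAGAAttgagctctg
IL1R1 chr2:102142249-102142277 (plus strand): tgatccctttTTCACAGAAgaggaaacgg
LIFR chr5:38595552-38595580 (minus strand): ccattactagTTCCTTGAAccacaatcca
LIFR chr5:38557631-38557659 (minus strand): gctttggagtTTCATCGAAaggtctttaa

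None of the 24 STAT3 targets tested had an unadjusted p under 0.05 with IL-22 against unstimulated, in either direction, where 5.16% of all genes were higher and 5.74% lower at that threshold. Their log2 fold changes were positive for 17 and negative for 7, with a median of 0.13 against -0.02 over all genes. Taken library by library against the unstimulated mean, the median over the targets was 0.22, 0.32, 0.21 and 0.17 in IL-22 replicates 1 to 4 (SD 0.0655). These values are differences in log2 CPM, not the fitted fold changes. The SD is over the IL-22 libraries only and leaves out the spread of the unstimulated ones. Summed over the list, unstimulated libraries held 4486 to 5329 CPM and IL-22 libraries 5305 to 6042 CPM. That sum depends most on abundant members. By mean, TIMP1 was at 1451 CPM without and 1882 CPM with IL-22, and IL6ST at 713 and 950 CPM. HIF1A went the other way, at 887 and 741 CPM. Leaving out single libraries gave a median of 0.09 to 0.24, and it was at least 0.20 without unstimulated replicate 1 or 3 or IL-22 replicate 1 or 3. The number higher at an unadjusted p under 0.05 was 0 without unstimulated replicate 4 or IL-22 replicate 3 and 1 to 3 in the other omissions. In 11 of the 24 the 95% interval lay within a 2-fold change in either direction, and in 17 within 2.83-fold.

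SOCS3, the feedback inhibitor that STAT3 induces, had very low counts. The gene (chr17:78356778-78360077, minus strand) had 2, 0, 3 and 2 counts in unstimulated replicates 1 to 4 and 5, 5, 3 and 6 with IL-22. Per depth this was 0.979, 0, 2.11 and 1.37 CPM against 3.80, 3.77, 3.85 and 3.84 CPM. Every IL-22 library lay above every unstimulated one, and the log2 difference was 1.70 ± 0.89 (SE; 95% interval -0.10 to 3.50; unadjusted p = 0.0634). With OSM it was 34.7, 29.1, 28.7 and 42.1 CPM, and with IL-6 0.571, 1.31, 2.53 and 5.43 CPM.

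The other early targets of STAT3 had low counts as well. CEBPD, a transcription factor of the acute-phase response, was at 8.81, 10.2, 9.15 and 10.2 CPM in unstimulated and 13.7, 27.9, 20.5 and 10.2 CPM in IL-22 libraries. IL-22 replicate 4 lay within the unstimulated range, and the log2 difference was 0.90 ± 0.47 (SE, unadjusted p = 0.0597). JUNB had 1, 0, 0 and 1 counts against 7, 0, 1 and 1, so replicate 1 carried its difference. PIM1, a survival kinase, had 6, 2, 0 and 0 counts against 10, 1, 3 and 7, and BCL3 and FOS were too low to test.

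Targets with high counts set the narrowest limits. IFITM3, an interferon-inducible membrane protein that STAT3 also induces, was at 257, 211, 185 and 173 CPM in unstimulated and 258, 260, 187 and 222 CPM in IL-22 libraries. The groups overlapped, and the interval of the log2 difference ran from -0.13 to 0.47, an upper limit of 1.38-fold. NNMT, a nicotinamide-methylating enzyme, was at 258, 193, 260 and 212 CPM against 260, 211, 287 and 268 CPM. Its interval ran from -0.19 to 0.49, at most 1.41-fold higher. For HIF1A, the hypoxia factor, the interval ran from -0.60 to 0.08, at most 1.06-fold higher. The metalloproteinase inhibitor TIMP1 had 2061, 1185, 1256 and 1303 CPM without and 1759, 1836, 2237 and 1696 CPM with IL-22. Unstimulated replicate 1 stood among the IL-22 values, and the log2 difference was 0.37 (interval -0.05 to 0.79, unadjusted p = 0.0792).

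**Figure D1:**
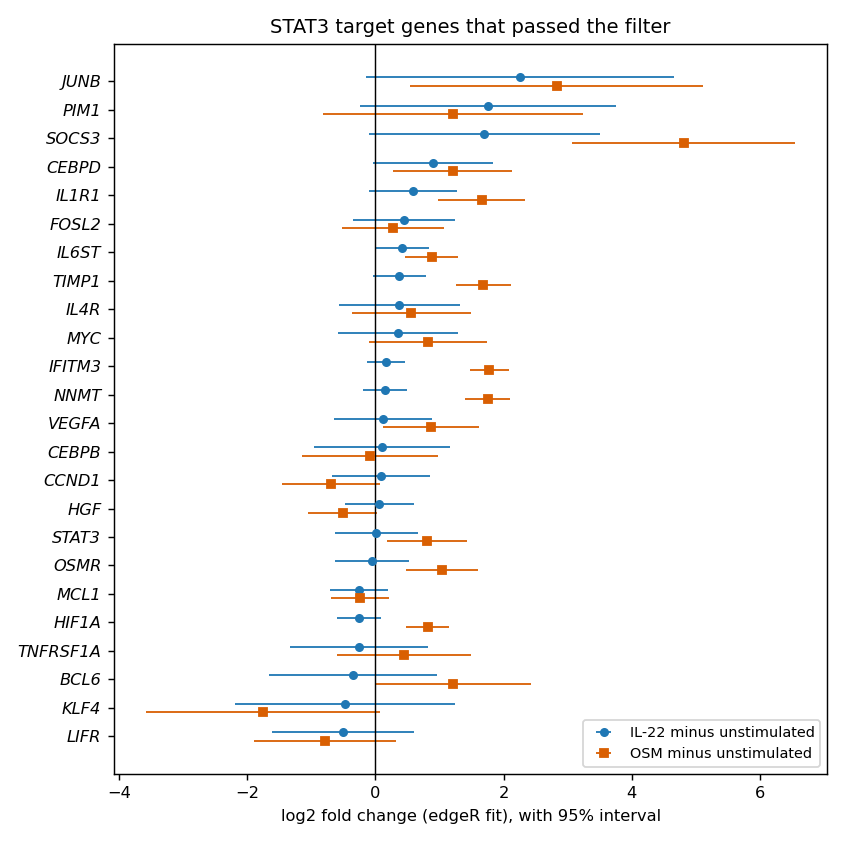
Log2 fold change against unstimulated cells (horizontal axis) for each STAT3 target tested (rows), with blue circles for IL-22, orange squares for OSM and bars for 95% confidence intervals, 4 libraries a group. The IL-22 points have a median of 0.13 and those of OSM a median of 0.85.

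The same genes separated IL-22 from OSM. Tested directly, 7 of the 24 targets were lower with IL-22 than with OSM at an adjusted p under 0.05 in edgeR and 0 were higher, where 1.89% of all genes were lower and 2.46% higher. The 7 were SOCS3, HIF1A, TIMP1, OSMR, IL1R1, NNMT and IFITM3, and the median difference over the list was -0.52. Against the unstimulated libraries that both cytokines share, 8 of the 24 passed as higher with OSM (1.42% of all genes higher, 2.54% lower) and the median was 0.85, next to 0.13 for IL-22 and 0.13 for IL-6.

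By gene, the difference was largest for SOCS3, -3.11 on the log2 scale (SE 0.77, adjusted p = 0.0106 in edgeR). IFITM3, at 887, 702, 645 and 594 CPM with OSM, was lower with IL-22 by a log2 difference of -1.61 (edgeR adjusted p = 4.49e-10). NNMT, at 924, 793, 663 and 726 CPM with OSM, differed by -1.60 (edgeR adjusted p = 9.22e-09). For both, every IL-22 library lay below every OSM library. TIMP1 at -1.31 and OSMR, the OSM receptor, at -1.09 also differed (edgeR adjusted p = 4.58e-05 and 0.0154). In the pathway list the phosphatase PTPN2 was lower with IL-22 than with OSM, by -1.28 on the log2 scale (edgeR adjusted p = 0.00667). Over all genes 132 were called between IL-22 and OSM, 79 higher and 53 lower with IL-22.

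IL-22 and IL-6, by contrast, differed by 1 call among 9513 genes. The chemokine CCL11 (eotaxin) was at 116, 86.7, 78.2 and 73.0 CPM with IL-22, 109, 343, 334 and 335 CPM with IL-6 and 91.6, 66.3, 64.0 and 72.4 CPM without stimulation. IL-6 replicate 1 lay among the IL-22 values and the other IL-6 libraries far above them, with a log2 difference of -1.66 ± 0.31 (SE, adjusted p = 0.0217 in edgeR). At an unadjusted p under 0.05, 422 genes were higher with IL-22 than with IL-6 (4.44%) and 438 lower (4.6%). None of the 24 STAT3 targets was among them. The CCL11 call was lost without IL-22 replicate 2 or 3 and without IL-6 replicate 2, 3 or 4.

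**Figure D2:**
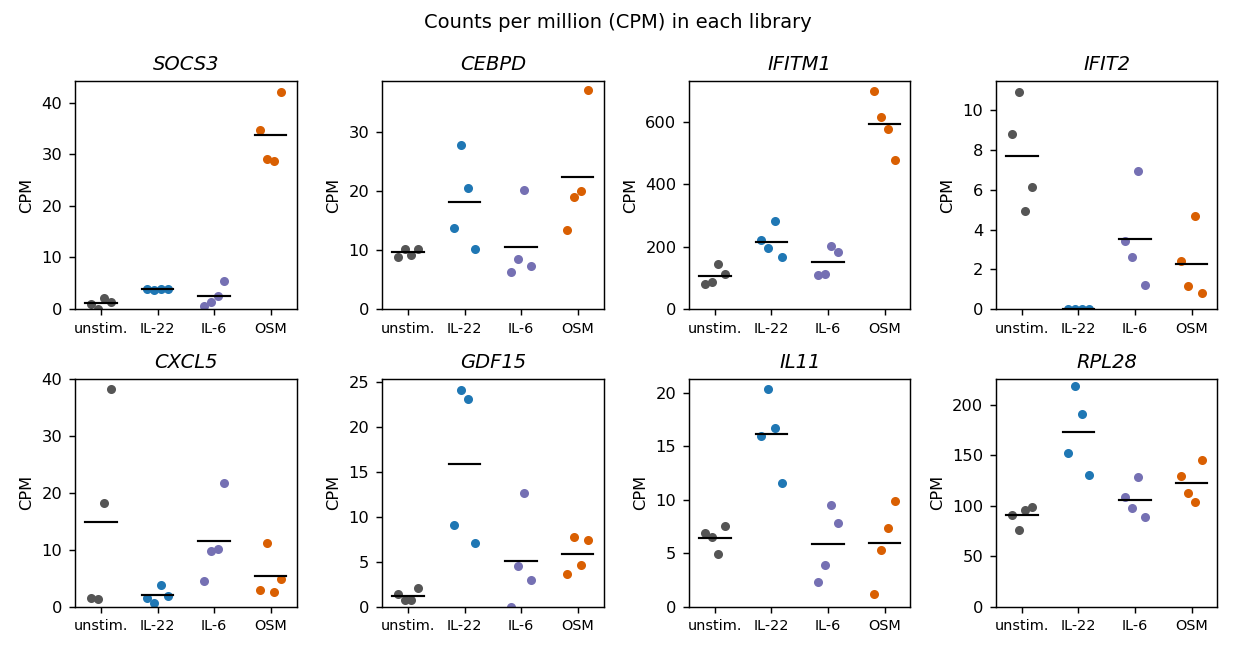
Level in CPM (vertical axis) of 8 genes in each library of the unstimulated, IL-22, IL-6 and OSM groups, with 1 point per library and a bar at the mean. By mean, SOCS3 and IFITM1 were highest with OSM, GDF15 and IL11 were highest with IL-22, and IFIT2 was at 0 in all IL-22 libraries.

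The epithelial programme of IL-22 was not detected. Of 20 genes known as its epithelial targets 0 had counts enough for a test, 15 were at 0 in all 8 libraries, and the largest count was 3. Summed, they reached at most 2.19 CPM in unstimulated and 5.13 CPM in IL-22 libraries. Of 21 acute-phase genes 7 were tested, 1 was higher and 0 were lower at an unadjusted p under 0.05 (5.16 and 5.74% of all genes), and 5 log2 fold changes were negative, with a median of -0.52. The lowest was complement C3, at -2.67 (unadjusted p = 0.0835). CHI3L1, a chitinase-like protein of inflamed tissue, was at 6.37, 0, 2.81 and 5.46 CPM without and 9.12, 9.05, 14.1 and 17.9 CPM with IL-22, a log2 difference of 1.70 ± 0.72 (SE, unadjusted p = 0.0227). The 2 groups did not overlap, but with OSM CHI3L1 was at 54.4 to 81.0 CPM, and it was lower with IL-22 than with OSM (log2 difference -2.39, edgeR adjusted p = 0.0215).

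The leading differences among single genes were outside the STAT3 list. The genes named in this and the next 2 paragraphs were picked among those whose groups did not overlap. Their lack of overlap follows from that choice and adds no evidence. GDF15, a stress-induced hormone of the TGF-beta family (chr19:18374731-18389176), had 3, 1, 1 and 3 counts in unstimulated replicates 1 to 4 and 12, 32, 18 and 11 with IL-22. As levels these were 1.47, 0.729, 0.704 and 2.05 CPM against 9.12, 24.1, 23.1 and 7.04 CPM, with no overlap. The log2 difference was 3.55 ± 0.76 (SE; interval 2.01 to 5.08; edgeR unadjusted p = 3.02e-05, adjusted p = 0.0911). IL-6 libraries spanned 0 to 12.7 CPM and OSM libraries 3.65 to 7.71 CPM. GDF15 passed both criteria without unstimulated replicate 3 and without IL-22 replicate 4, but not in the other omissions or with the 8 libraries alone. It also passed when every gene with any count was tested. With a replicate block it passed as well (log2 difference 3.45, edgeR adjusted p = 0.0467), though the replicate numbers did not pair the libraries.

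Other genes shared the adjusted p of 0.0911 at higher counts. H2AC19, a replication-dependent histone H2A gene, was at 15.7, 22.6, 23.9 and 23.2 CPM without and 49.4, 92.0, 53.8 and 33.3 CPM with IL-22 (log2 difference 1.43 ± 0.30 SE, unadjusted p = 1.72e-05). Its reads may be split with near-identical histone copies, so its level is uncertain. MRPL27, a protein of the mitochondrial ribosome, was at 172, 186, 208 and 223 CPM against 291, 325, 352 and 302 CPM. NDUFA13, a subunit of respiratory complex I, was at 447, 494, 636 and 515 CPM against 833, 1012, 999.8 and 663 CPM. Neither gene had overlapping groups, and their log2 differences were 0.69 ± 0.16 and 0.75 ± 0.17 (SE). SELENOH at 1.00 and MPHOSPH8, a reader of silencing histone marks, at 0.81 were the remaining non-ribosomal genes higher with IL-22 at that adjusted p.

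Lower with IL-22 was GPC6, a heparan sulphate proteoglycan of the cell surface (chr13:93226807-94408020). It was at 86.2, 79.5, 102 and 85.4 CPM without and 47.1, 29.4, 32.0 and 45.5 CPM with IL-22, a log2 difference of -1.18 ± 0.26 (SE, unadjusted p = 3.97e-05). All IL-22 libraries were well under the unstimulated ones, and under the OSM libraries too (log2 difference from OSM -1.54, edgeR adjusted p = 7.8e-05). ACTR2, a subunit of the actin-nucleating Arp2/3 complex, was at 521, 531, 468 and 378 CPM against 360, 255, 236 and 348 CPM, a difference of -0.66 ± 0.15 (SE). DSTYK at -1.51, the endosomal GTPase RAB5A at -0.91 and the membrane protease ADAM9 at -0.67 were lower as well.

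The start sites of 6 of these leading genes are shown because the group with the most members higher with IL-22 is known for a feature of the transcript's first bases. Transcripts of ribosomal proteins are known to begin with a cytosine followed by a run of pyrimidines, through which growth signals set their translation. Each line holds 15 bases before and 15 bases from the annotated start, plus strand, with the pyrimidine run that begins at the start in capitals. RPL28, RPL14 and RPL37A encode ribosomal proteins and were higher with IL-22, as GDF15 was, while GPC6 and ACTR2 were lower.
RPL28 chr19:55385917-55385946: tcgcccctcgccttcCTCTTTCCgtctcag
RPL14 chr3:40457324-40457353: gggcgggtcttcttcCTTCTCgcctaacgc
RPL37A chr2:216498829-216498858: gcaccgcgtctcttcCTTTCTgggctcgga
GPC6 chr13:93226792-93226821: ttctttctcccccctCCTTTCTCCTTCCCT
ACTR2 chr2:65227816-65227845: aggggccgggaagacgcaagaggaagaaga
GDF15 chr19:18386143-18386172: cggcagcatctggtcagtcccagctcagag

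A start C followed by 4 pyrimidines was found in 45 of 76 windows of ribosomal protein genes (59.2%, 61 of 76 genes matched) and in 1429 of 35116 windows of all genes (4.07%). GPC6, lower with IL-22, had such a run as well. Over the genes tested, the 45 ribosomal protein genes with the run had a median log2 fold change of 0.39 and the 16 without it 0.32. Outside that list the 534 genes with the run had a median of 0.02 and the 7229 without it -0.03.

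Of the 21 lists, the ribosomal protein genes had the most members at an unadjusted p under 0.05. Of 76 tested, 46 were higher with IL-22 at an unadjusted p under 0.05 and 0 were lower, where 5.16% and 5.74% of all genes were. Their median log2 fold change was 0.36 against -0.02, 73 were positive, and the groups did not overlap for 14 (2.21% of all genes did not overlap in that direction). No member passed at an adjusted p in edgeR, while DESeq2 passed 15 as higher (3.36% of the 2320 genes with a DESeq2 adjusted p). RPL28, a protein of the large subunit, was at 91.1, 75.8, 95.7 and 99.0 CPM without and 152, 219, 191 and 131 CPM with IL-22, a log2 difference of 0.93 ± 0.22 (SE, unadjusted p = 0.000105). All 4 IL-22 libraries lay above all unstimulated ones, as they did for RPL14 at 0.65 and RPL37A at 0.63. The members below 0 were RPS7, RPS10 and RPL12, of which RPS7 was the lowest at -1.03 (unadjusted p = 0.247). Ribosomal protein genes have many near-identical processed pseudogenes with which the counting could split reads, so values of single members are uncertain.

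Against IL-6 the pattern was alike. Of the 76 genes, 40 were higher with IL-22 than with IL-6 at an unadjusted p under 0.05 (4.44% of all genes), 72 differences were positive, and the median was 0.32. Side by side, the medians against the shared unstimulated libraries were 0.36 for IL-22, 0.20 for OSM and 0.04 for IL-6. In the comparison with unstimulated cells, the number higher at an unadjusted p under 0.05 was 28 without IL-22 replicate 2 and 54 without unstimulated replicate 3, and the median lay between 0.32 and 0.46 over the omissions of single libraries.

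The share of all counts on ribosomal protein genes was 2.94, 2.70, 3.25 and 2.85% in unstimulated replicates 1 to 4 and 3.60, 4.03, 4.00 and 3.26% with IL-22. The groups met almost at 3.25 and 3.26%, and over the 44 libraries the share ran from 2.00 to 4.11%. All 4 IL-22 libraries lay above every unstimulated one, as did 3 each with TGF-beta1, TNF, IFN-gamma and OSM. The same held for 2 each with IL-13 and IL-17A and for 0 with IFN-alpha, IL-1beta and IL-6. The median share was 3.86% with TGF-beta1 and 3.80% with IL-22.

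Genes of the respiratory chain lay mostly on the same side. Of 48 tested, 21 were higher with IL-22 at an unadjusted p under 0.05 (5.16% of all genes) and 1 was lower, with a median log2 fold change of 0.38. The groups did not overlap for 9 (2.21% of all genes), and DESeq2 passed 9 as higher (3.36% of the genes with a DESeq2 adjusted p). NDUFB10 at 0.76 and NDUFS6 at 0.70, both of complex I, were in both sets. The lower gene was SDHA, the catalytic subunit of complex II, at -1.16 (unadjusted p = 0.0378). Against unstimulated cells the number higher was 14 without IL-22 replicate 2 and 30 without unstimulated replicate 3. Against IL-6, 23 were higher with IL-22 at an unadjusted p under 0.05 (4.44% of all genes) and the median was 0.32. By group median, the share of counts on respiratory chain genes was 1.69% with TGF-beta1, 1.60% with TNF, 1.59% with IL-22 and 1.25% in unstimulated libraries.

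Both groups hold short transcripts, with median lengths of 827 and 693.5 bases against 3417 for all genes tested. Sorted by transcript length into 5 groups of equal size, the genes had median log2 fold changes with IL-22 of 0.19 in the shortest group, then 0.01, -0.09, -0.12 and -0.10. Among the 1899 shortest, 271 were higher and 47 lower at an unadjusted p under 0.05 (5.16 and 5.74% of all genes). Spearman's rho between transcript length and log2 fold change across genes, which are not independent replicates and share their libraries, was -0.19 for IL-22, -0.19 for OSM and -0.10 for IL-6. With GC content it was 0.20, 0.32 and 0.13. The length trend was also taken out, in an alternative chosen after the data were seen. There 17 of the 76 ribosomal protein genes and 8 of the 48 respiratory chain genes were higher at an unadjusted p under 0.05. Over all genes 395 of 9513 were higher in that setting. The medians over all tested members of the 2 lists were 0.16 and 0.18.

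The libraries differed in the same measure. The geometric mean length of the transcripts counted was 2861, 3107, 3006 and 3061 bases in unstimulated and 2841, 2740, 2685 and 2907 bases in IL-22 replicates 1 to 4. Symbols of nuclear pseudogenes of mitochondrial genes took 1.78, 2.20, 2.28 and 2.25% of counts without and 2.98, 3.37, 3.19 and 2.65% with IL-22. Of the 25 such pseudogenes tested, a set drawn up by name after the data were seen, 14 were higher at an unadjusted p under 0.05 and 0 lower (5.16 and 5.74% of all genes), with a median of 0.52. What part transcript length or library make-up has in the ribosomal and respiratory values was not tested beyond these figures.

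**Figure D3:**
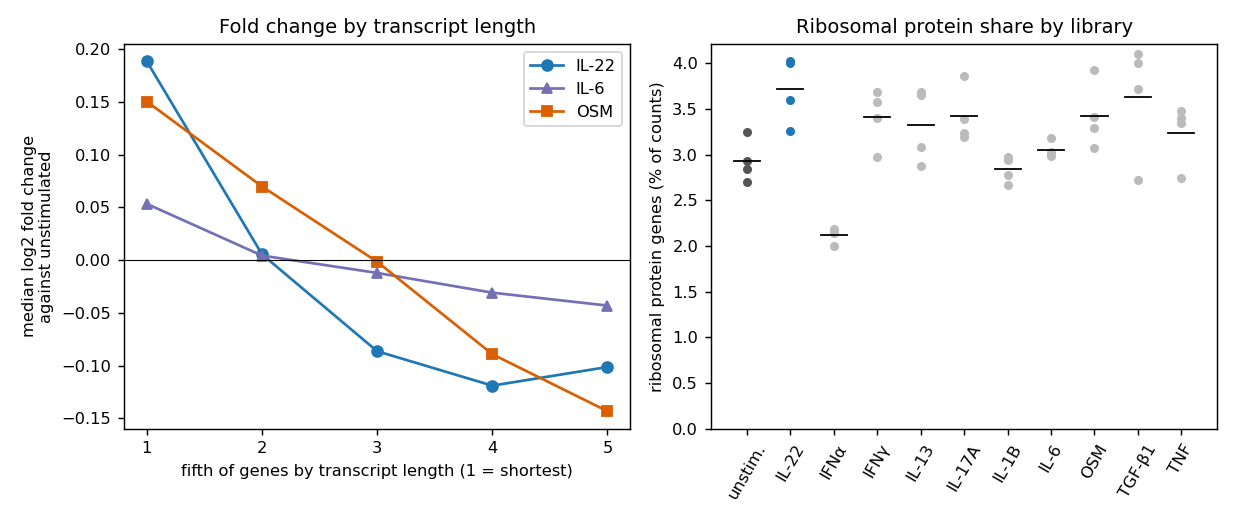
Left, median log2 fold change against unstimulated cells (vertical axis) in 5 groups of genes ordered by transcript length, for IL-22, IL-6 and OSM. Right, percent of counts on ribosomal protein genes in every library of the 11 groups (points, bar at the mean). The IL-22 medians go from 0.19 in the shortest to -0.10 in the longest genes, and the IL-22 libraries hold 3.26 to 4.03% against 2.70 to 3.25% in unstimulated ones.

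Interferon-stimulated genes went both ways. Of 42 tested 2 were higher and 4 lower at an unadjusted p under 0.05 (5.16 and 5.74% of all genes), and their median was 0. The filter behind these 42 took in all 44 libraries, those given interferons included. Filtered on the 8 libraries alone, 18 were tested, with 1 higher, 0 lower (349 and 350 of all 7427 genes) and a median of 0.11. Among the 42, the number higher was 1 without unstimulated replicate 1 or 2 or IL-22 replicate 2. IFITM1 (chr11:310041-315272), a membrane protein that blocks virus entry, was at 80.3, 87.5, 143 and 113 CPM without and 223, 194, 282 and 166 CPM with IL-22. The groups did not overlap, with a log2 difference of 1.03 ± 0.27 (SE, unadjusted p = 0.000485, edgeR adjusted p = 0.11, DESeq2 adjusted p = 0.0109). OSM gave 699, 615, 575 and 478 CPM, and IFITM1 was lower with IL-22 than with OSM by a log2 difference of -1.46 (edgeR adjusted p = 0.000332).

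IFIT2 (chr10:89283694-89309271), a cytoplasmic RNA-binding antiviral protein, had 18, 15, 7 and 9 counts in unstimulated libraries and 0 in all 4 given IL-22. As levels the unstimulated values were 8.81, 10.9, 4.93 and 6.15 CPM. Against a floor of 3 counts per library IFIT2 was at least 2.99-fold lower with IL-22 (unadjusted p = 0.000609, edgeR adjusted p = 0.115, DESeq2 adjusted p = 0.00500). Filtered on the 8 libraries alone, 0 of 18 interferon-stimulated genes were lower at an unadjusted p under 0.05. There IFIT2 was thus either not tested or not past that threshold. With IL-6 it was at 1.21 to 6.96 CPM and with OSM at 0.825 to 4.67 CPM. MX1, with 5, 4, 3 and 1 counts in unstimulated libraries and 0 with IL-22, was under that floor in the IL-22 libraries and too low for a fold. CXCL10, an interferon-induced chemokine, was at 0, 0, 2.81 and 6.15 CPM without and 5.32, 23.4, 14.1 and 2.56 CPM with IL-22, in overlapping groups (log2 difference 2.33 ± 0.96 SE, unadjusted p = 0.0191). GBP1 at -0.36 and SAMD9L at -0.86 were lower at an unadjusted p under 0.05.

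Among 28 genes listed as secreted factors of activated fibroblasts, 5 were higher and 3 lower at an unadjusted p under 0.05 (5.16 and 5.74% of all genes), with a median of 0.22. Filtered on the 8 libraries alone, 19 were tested, with 3 higher, 2 lower (349 and 350 of all 7427 genes) and a median of 0.19. IL11, a gp130 cytokine that fibroblasts secrete, was at 6.86, 6.56, 4.93 and 7.51 CPM without and 16.0, 20.4, 16.7 and 11.5 CPM with IL-22. All IL-22 libraries were above the unstimulated ones, with a log2 difference of 1.29 ± 0.50 (SE, unadjusted p = 0.0133). The IL-6 libraries held 2.28 to 9.49 CPM and the OSM libraries 1.22 to 9.90 CPM. The monocyte chemokine CCL7 at 1.24, the gelatinase MMP2 at 0.40 and the anchoring-fibril collagen COL7A1 at 0.91 were higher in overlapping groups. The CCL20 difference came from replicate 4 of both groups, with 4 and 25 counts and 0 in all other libraries.

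Lower among the secreted factors was CXCL5, a neutrophil chemokine (chr4:73995642-73998677). It was at 1.47, 1.46, 18.3 and 38.3 CPM in unstimulated replicates 1 to 4 and 1.52, 0.754, 3.85 and 1.92 CPM with IL-22, a log2 difference of -2.93 ± 0.86 (SE, unadjusted p = 0.00142, DESeq2 adjusted p = 0.0211). Unstimulated replicates 3 and 4 were high, and the other unstimulated libraries lay within the IL-22 range. The filter that CXCL5 passed took in all 44 libraries, those given other cytokines included. The metalloproteinase inhibitor TIMP3 at -0.86 was lower too, as was THY1 at -0.69, a fibroblast surface antigen rather than a secreted factor, both with overlap. When single libraries were left out, the number of secreted factors higher at an unadjusted p under 0.05 was 2 once unstimulated replicate 2 was omitted, 3 without unstimulated replicate 1 or 3, and 9 in the absence of unstimulated replicate 4. Their median turned to -0.07 without IL-22 replicate 4, was 0.04 to 0.12 without unstimulated replicate 1, 2 or 3, and was 0.43 without unstimulated replicate 4.

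Contractile and cell cycle genes had members at an unadjusted p under 0.05 on the lower side only, which for the cell cycle genes depended on single libraries. Of 23 contractile genes 4 were lower and 0 higher (5.74 and 5.16% of all genes), with a median of -0.37 that was -0.07 without unstimulated replicate 1 and -0.22 without IL-22 replicate 2. ACTN1, which crosslinks actin filaments, was at 168, 140, 122 and 112 CPM without and 74.4, 92.7, 67.9 and 94.1 CPM with IL-22. The groups did not overlap, and the log2 difference was -0.72 ± 0.22 (SE, unadjusted p = 0.00256). The tropomyosin TPM4 at -0.37 and the myosin kinase MYLK at -0.56 overlapped between the groups. LMOD1 was at 0 in 3 of the 4 IL-22 libraries. The number lower was 2 without unstimulated replicate 2 and without IL-22 replicate 2 or 3.

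Of 28 cell cycle genes 5 were lower and 0 higher (5.74 and 5.16% of all genes), with a median of -0.21 next to -0.56 with OSM. The median was -0.11 without IL-22 replicate 3, -0.13 without unstimulated replicate 1 and -0.30 at the lowest, without unstimulated replicate 3. AURKA, a mitotic kinase, was at 29.9, 12.4, 12.7 and 32.8 CPM without and 6.84, 2.26, 11.5 and 7.04 CPM with IL-22, a log2 difference of -1.71 ± 0.66 (SE, unadjusted p = 0.0135). TOP2A, the topoisomerase of dividing cells, was at -0.63, and CCNE2, MCM6 and MCM7 completed the list. The number lower was 1 without unstimulated replicate 1, and 2 or 3 without IL-22 replicate 1, 2 or 3. The number higher was 2 without unstimulated replicate 1 and 1 without IL-22 replicate 1, 3 or 4.

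In the remaining lists few members passed an unadjusted p of 0.05, at which 5.16% of all genes were higher and 5.74% lower. Extracellular matrix genes had 1 of 33 higher (COL8A1, 0.62) and a median of -0.12, and NF-kB targets had 1 of 20 higher and a median of 0.24. Genes of the endoplasmic reticulum and amino acid stress responses had 1 of 29 higher (SDF2L1, 0.89) and 3 lower (PSAT1 at -0.90, ASNS at -0.67 and CANX at -0.42), with a median of -0.23. Cholesterol synthesis had 1 of 18 higher and 3 lower, with a median of -0.10. Glycolysis, with 24 genes, and the early response genes, with 20, had 0 in either direction and medians of 0.01 and 0.06.

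**Figure D4:**
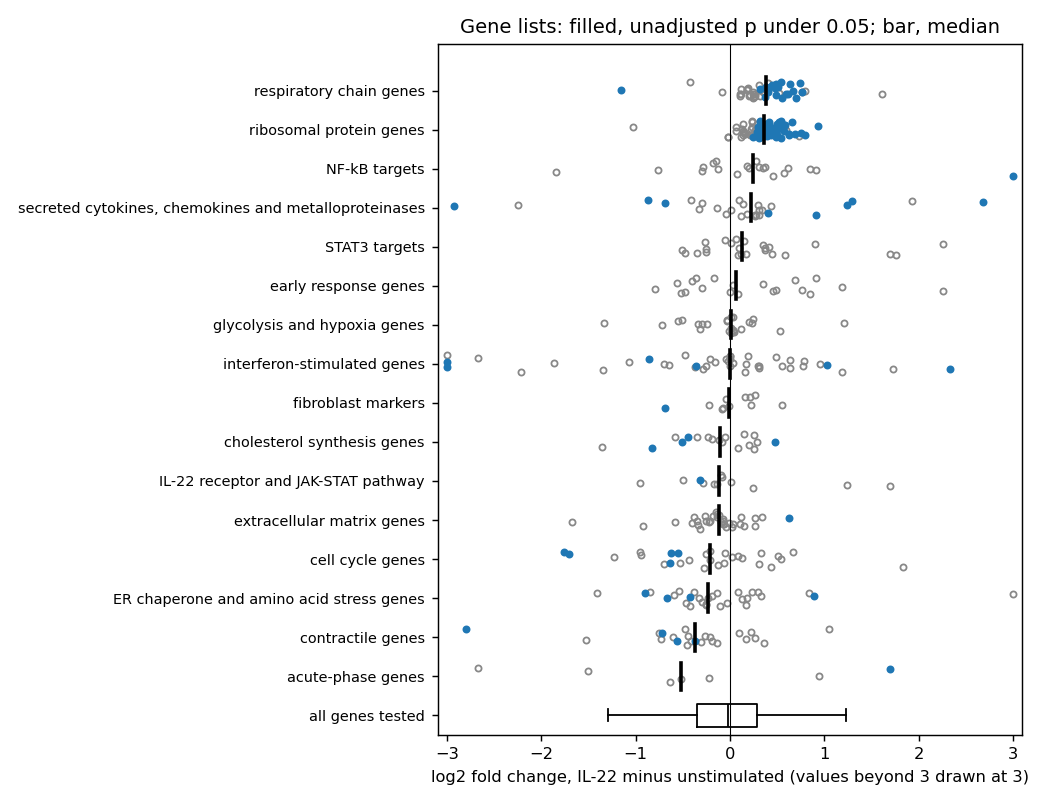
Log2 fold change of IL-22 against unstimulated cells (horizontal axis, clipped at -3 and 3) for each tested gene of each list (rows), filled where the unadjusted p was under 0.05, with a bar at the median and a box for all genes. The ribosomal protein and respiratory chain genes, with medians of 0.36 and 0.38, sit to the right of 0, and the contractile genes, with a median of -0.37 (-0.07 without unstimulated replicate 1), to the left.

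The size of change that these libraries could miss depended on the level of a gene. The 95% interval of the log2 fold change, from the edgeR fit, lay within -1 and 1, a 2-fold change either way, for 3808 of 9513 genes (40.0%). It lay within -1.5 and 1.5, or 2.83-fold, for 6149 (64.6%). Between 2.33 and 12.8 CPM, the median half-width of the interval was 1.53, and only 10 genes of 3171 (0.315%) were limited to a 2-fold change. From 12.8 to 47.7 CPM the half-width was 0.81, and 1065 genes (33.6%) were so limited. Above that level it was 0.45, or 1.37-fold, and 2733 genes (86.2%) were limited to a 2-fold change and 3107 (98.0%) to 2.83-fold. An estimate beyond 1.5 in either direction was seen for 341 genes, of which 308 were in the lowest of these 3 ranges. For most genes of that range a change of this size was not detectable at this depth.

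**Figure D5:**
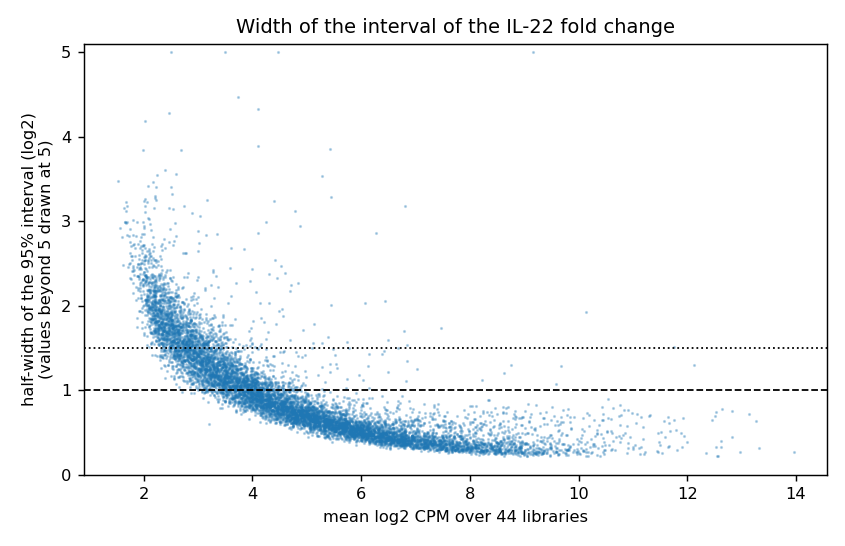
Half-width of the 95% confidence interval of the log2 fold change of IL-22 against unstimulated cells (vertical axis, clipped at 5) against the mean log2 CPM of the gene (horizontal axis), 1 point per gene, with a dashed line at 1 and a dotted line at 1.5. The median half-width falls from 1.53 in the lowest to 0.45 in the highest of 3 equal groups of genes.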

How the data were processed

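Bulk RNA-seq libraries of Ccd-18Co cells (44 libraries, 4 per group in 11 groups) were read from 1 table of estimated counts per gene symbol, as deposited by the authors, with no scaling for depth. The submitters' notes name FastQC 0.11.9, MultiQC 1.14, kallisto 0.48.0 and the build hg38. The transcriptome release, the summing of transcripts to genes and the use of strand are not given in the sources used here, so antisense and overlapping genes cannot be told apart. Of the values 5.77% were not whole, and all were rounded. Of 40663 symbols 16928 were at 0 throughout.

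In R 4.3.3, edgeR 4.0.16 kept 9513 genes (filterByExpr), applied TMM normalization and fitted all 44 libraries in 1 quasi-likelihood model, with 1 coefficient per group (biological coefficient of variation 0.331). P-values, all two-sided, were adjusted by the Benjamini-Hochberg method over all genes in each comparison. A call needed a log2 fold change beyond 1.5 in either direction at an adjusted p under 0.05. DESeq2 1.42.0 was the alternative, with adjusted p-values of NA left as NA. Other alternatives were size factors, filters, 8 libraries alone, a lower fold, the replicate number as a block and leaving out each library. Removal of a transcript length or GC trend was chosen after seeing the data. The scripts were tested on simulated data. Lengths, GC content and gene coordinates are from GENCODE release 44 (GRCh38), and promoter windows are from RefSeq (GRCh38.p14).

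Named genes were those of the receptor and STAT3 lists, the 10 higher and 10 lower genes of smallest p among those at a mean log2 CPM of at least 3 whose groups did not overlap, the extreme members and those at an unadjusted p under 0.05 in the other of 21 lists, the calls, and the 3 largest differences each way from OSM and IL-6. The members and lists were chosen with earlier results of these data known. Replicates of a group differed by more than sampling noise (chi-square per degree of freedom 5.03 to 25.1), so none was counted as a duplicate. The single-cell, spatial, chromatin and cytokine mixture data of the study were not used here. 1 gene of the pathway list is not reported here.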

Additional observations from a re-analysis of the deposited data

Results flagged for a closer look

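For the library measures and named genes, each group of 4 libraries was examined for a single library far from the others. By chance about 1 in 20 groups would have one, and 29 of 355 did (8.17%).

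Unstimulated replicate 1 stood apart in several: it held 1.78% of counts on mitochondrial pseudogenes against 2.20 to 2.28% in the others, and it was high for TIMP1 (2061 CPM), MMP2 (398 CPM), THY1 (181 CPM) and COL7A1 (13.2 CPM) and low for H2AC19 (15.7 CPM). Unstimulated replicate 3 was high for RPS4X (428 CPM), RPL6 (738 CPM), RPL30 (203 CPM) and RPLP2 (186 CPM) and low for TMEM30A (433 CPM, others 553 to 565 CPM). Unstimulated replicate 4 was low for RPS16 (124 CPM) and alone in CCL20 (2.73 CPM).

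IL-22 replicate 2 was high for RPL11 (337 CPM), NDUFB2 (464 CPM) and NDUFC1 (209 CPM), low for JAK1 (108 CPM, others 132 to 137 CPM), and alone in C3 (0.754 CPM) and ICAM1 (5.28 CPM). IL-22 replicate 3, the shallowest library, was high for OSMR (48.7 CPM), FDPS (160.2 CPM), CHAC1 (5.13 CPM) and COL5A1 (56.4 CPM, where the others were at 0 to 0.760 CPM). IL-22 replicate 4 was low for RPS26 (452 CPM) and RPL13 (282 CPM) and alone in CCL20 (16.0 CPM) and WNT2 (0.640 CPM). IL-22 replicate 1 was alone in LMOD1 (3.04 CPM) and GPR39 (0.760 CPM).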

How the results depend on the processing

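The count of 0 calls with IL-22 became 13 when every gene with any count was tested, 1 with the replicate block, 2 with DESeq2, and 0 to 6 when single libraries were left out. Genes at an adjusted p under 0.05, 0 in edgeR, numbered 29, 12 (9 higher, 3 lower), 112 and 0 to 71 in the same order. Those at an unadjusted p under 0.05 numbered 1584 without a filter and 768 to 1209 without single libraries. The median of the STAT3 targets lay at 0.0901 to 0.24 and the number of genes limited to a 2-fold change at 3209 to 3537 without single libraries. The 132 calls between IL-22 and OSM became 262 at a lower fold of 2, and 97 to 142 without single libraries. Between IL-22 and IL-6 the single call became 21 without a filter, 2 with DESeq2 and 0 to 3 without single libraries. DESeq2's size factors instead of TMM, the stricter filter, the 8 libraries alone and removal of either trend left 0 calls and 0 genes at an adjusted p under 0.05 in edgeR, with 1037, 1032, 699, 793 and 961 at an unadjusted p under 0.05. The replicate numbers did not pair the libraries: the correlations of deviations between same-numbered libraries were -0.06 to 0.03. Of 121 named genes at an unadjusted p under 0.05, 115 kept their sign in every setting. The sign turned for CCL20 when single libraries were left out (-3.09 without IL-22 replicate 4, up to 5.76 without unstimulated replicate 4) and, once the length trend was removed, for RPS13 (-0.016), RPL21 (-0.040), RPL24 (-0.0056), RPL34 (-0.021) and NDUFS5 (-0.032). The cause of these shifts was not tested. Depth limited genes below about 12.8 CPM most.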
